A study of Mus musculus with 18 samples.

Results

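Sox17 and 6 other Sox transcription factors were followed over blood stem and progenitor cells from C57Bl/6J mice, taken before birth from the fetal liver (FL) or in adult life from the bone marrow (BM). The 7 genes were chosen by name, as the probe sets with a single gene symbol among Sox17, Sox7, Sox18, Sox4, Sox12, Sox6 and Sox13, and all 7 were measured, each by 1 probe set, among 19505 genes. A further 13 Sox genes on the array served for comparison. Embryos gave the FL cells at E13.5, and the BM donors were adults, 3 to 12 months old. In both sources, cells without lineage markers but with Sca-1 and Kit on their surface (LSK) were divided by Cd150 and Cd48 into long-term stem cells (LT-HSC), short-term stem cells (ST-HSC) and multipotent progenitors (MPP). There are 18 arrays in 6 groups of 3, which carry the letters a, b and c. The labels do not say whether a letter is an animal of its own; the p-values therefore rest on the spread between arrays, which may be technical. The free-text descriptions instead speak of transplanted mice that received guide RNAs, sgEzh2 for 4 FL arrays (a of each population and b of MPP) and sgLuc for the other arrays; this goes against the titles and source names, and the groups follow the titles.

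Sox proteins bind DNA through a high-mobility-group (HMG) box, bend it, and usually act together with partner factors. Sox7, Sox17 and Sox18 form the SoxF subfamily, which acts in blood vessel endothelium and in the endothelial cells that give rise to blood, and Sox17 is known as a factor that fetal stem cells need and adult stem cells do not. Sox4 and Sox12 belong to SoxC, and Sox4 is needed for B and T cell development. Sox6 and Sox13 belong to SoxD, which lacks an activation domain of its own; Sox6 silences embryonic globin genes in red cell precursors, and Sox13 acts in gamma-delta T cells.

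The arrays gave log2 signals with medians between 7.68 and 7.78, and arrays of a group correlated at r = 0.960 to 0.994. The interquartile range of the signals was 2.61 to 2.71 in FL LT-HSC b, BM LT-HSC c, BM ST-HSC b and BM ST-HSC c. It was 2.98 to 3.18 in the other 14 arrays. The first 4 are called the 4 narrow arrays. Without them BM ST-HSC keeps array a alone, and fits assume that this group varies like the others. The sort genes followed the population names: Slamf1, which encodes Cd150, was at 9.31 ± 0.18 (SD, n = 3) in FL LT-HSC and 6.71 ± 0.24 in FL MPP, and at 9.66 ± 0.40 in BM LT-HSC and 7.25 ± 0.14 in BM MPP. The Cd48 signal was 9.79 ± 0.21 in FL LT-HSC against 12.35 ± 0.0030 in FL MPP, and 10.32 ± 0.95 in BM LT-HSC against 12.26 ± 0.08 in BM MPP. Genes of other cell types moved with the source: the mean of 8 neutrophil genes was 6.52 to 7.91 in FL arrays and 11.04 to 13.04 in BM arrays, the mean of 7 B cell genes 6.99 to 7.80 and 7.97 to 9.76, the mean of 5 T cell genes 6.33 to 6.67 and 6.67 to 7.91, and the mean of 9 hepatocyte and hepatoblast genes 8.01 to 9.43 and 7.33 to 7.71. Their part in the differences between FL and BM was not tested. A log2 array signal has no 0, so these data do not show a marker to be absent.

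Averaged over the 3 populations, Sox18 and Sox12 were higher in FL than in BM, while Sox17, Sox7, Sox4, Sox6 and Sox13 did not pass the test. These 2 of 7 genes stand against 15.9% of all genes higher and 9.26% lower in the same comparison (limma, Benjamini-Hochberg adjusted p under 0.05 over 19505 genes). The median difference of the 7 genes was 0.05 on the log2 scale and that of all genes 0.01. Over all 6 groups, only Sox18 (limma moderated F, adjusted p = 0.0044) and Sox4 (adjusted p = 0.00349) of the 7 varied beyond their spread, where 24.1% of all genes did. Comparisons between groups share arrays, so they are not independent of each other.

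**Figure D1:**
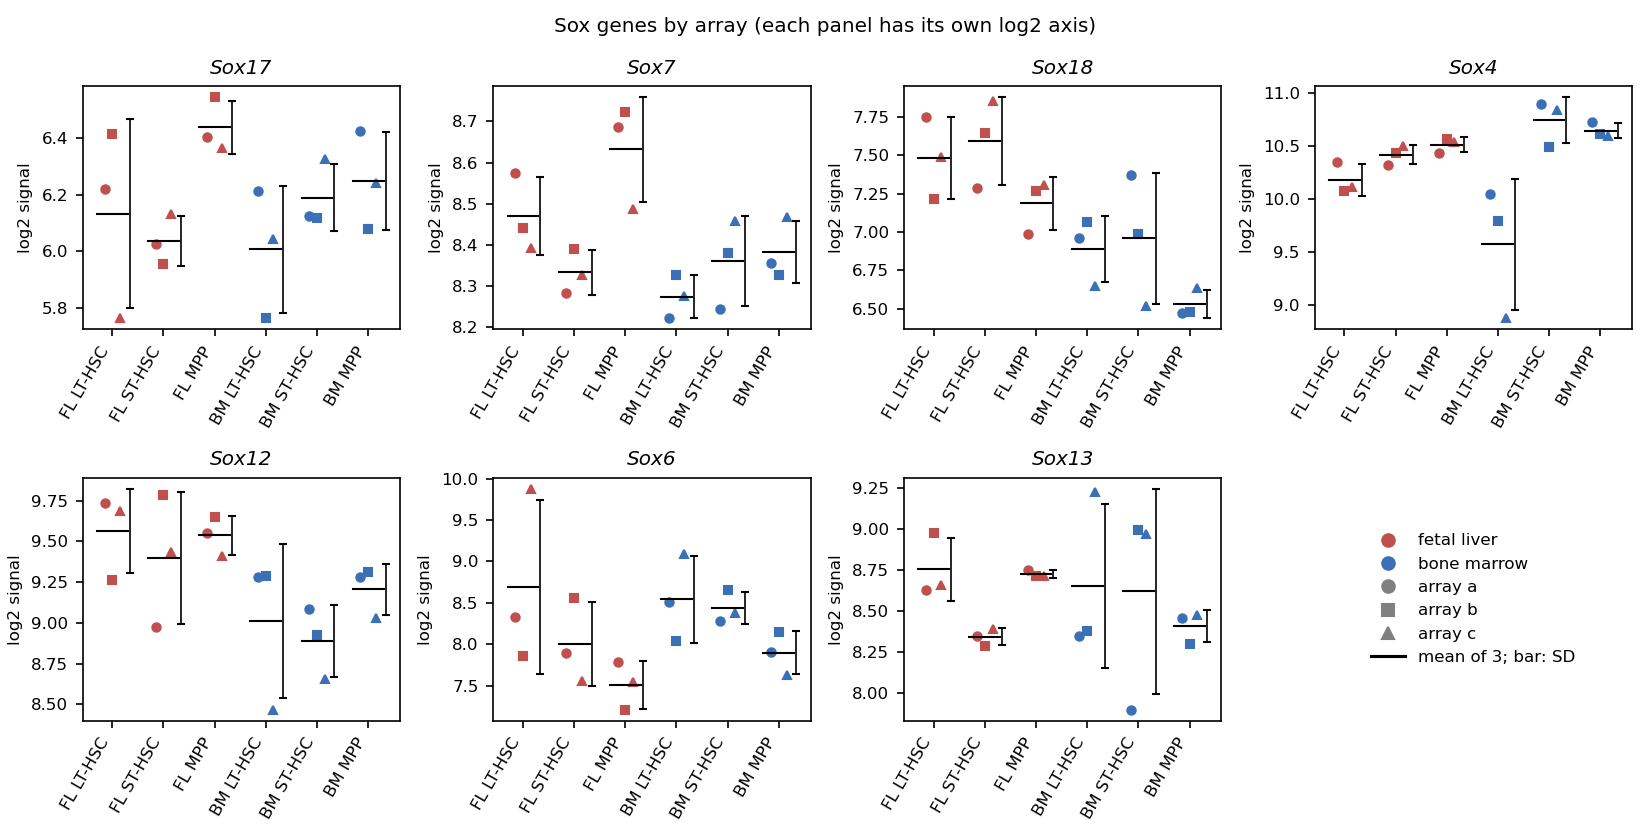
Log2 signal of the 7 Sox genes in each of the 18 arrays, by group (red, FL; blue, BM; circle, square and triangle, arrays a, b and c), with the mean and SD of 3 arrays; each panel has its own log2 axis, which does not start at 0. Sox18 has a higher mean in the FL groups than in the BM group of the same population, and Sox4 is lowest in BM LT-HSC. Ranked by mean, each Sox17 group overlaps with the next, while FL ST-HSC and FL MPP do not overlap.

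Sox17, a SoxF factor that marks fetal stem cells, was a dim probe set whose FL and BM signals did not differ beyond the spread of the arrays. It lies on chromosome 1 at 4490928 to 4497426 (GRCm38.p6) and was the only gene of the 7 among the 30% of genes with the lowest mean signal. The deposited values hold no detection calls, so whether the Sox17 signal lies above background cannot be told. In FL LT-HSC the Sox17 log2 signal was 6.22, 6.41 and 5.76 in arrays a, b and c, and in BM LT-HSC 6.21, 5.76 and 6.04. In FL ST-HSC it was 6.03, 5.95 and 6.13, and in BM ST-HSC 6.13, 6.12 and 6.32. In FL MPP it was 6.40, 6.54 and 6.36, and in BM MPP 6.43, 6.08 and 6.24. The arrays of FL and BM overlapped in every population. All 18 arrays lay within 0.78 of each other, and the range of the 13 other Sox genes over the same arrays was 0.61 to 1.01, larger than that of Sox17 for 6 of them.

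The FL to BM difference of Sox17 was 0.05 ± 0.09 (SE) on average, with a 95% interval of -0.14 to 0.25 (limma adjusted p = 0.721). It was 0.13 ± 0.16 in LT-HSC (adjusted p = 0.767), -0.15 ± 0.16 in ST-HSC (adjusted p = 0.511) and 0.19 ± 0.16 in MPP (adjusted p = 0.67). The LT-HSC value was -0.02 without FL LT-HSC b and 0.31 without FL LT-HSC c (adjusted p = 0.303). An adjusted p above the threshold does not show equal expression; the intervals reach 0.25 for the average, 0.46 in LT-HSC, -0.49 in ST-HSC and 0.52 in MPP, and a dim probe set can understate a difference in RNA. From high to low mean the groups ran FL MPP, BM MPP, BM ST-HSC, FL LT-HSC, FL ST-HSC and BM LT-HSC, and each neighbouring pair overlapped. The highest and lowest means, FL MPP and BM LT-HSC, lay 0.43 apart, a pair that was not tested. Among the 12 comparisons the largest difference was within FL. There all 3 MPP arrays lay above all 3 ST-HSC arrays, a pattern that 26.5% of all genes showed in 1 or the other direction. This difference, ST-HSC minus MPP, was -0.40 ± 0.16 (interval -0.74 to -0.07; limma adjusted p = 0.262). LT-HSC minus MPP was -0.31 ± 0.16 in FL (adjusted p = 0.414) and -0.24 ± 0.16 in BM (adjusted p = 0.495). Under 28 alternative settings of the processing that give an adjusted p, none of 336 such values for Sox17 over 12 comparisons passed, the smallest being 0.0708.

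Among 2068 genes whose group means spanned at least 1 on the log2 scale, those most like Sox17 over the 18 arrays were Bin1, a membrane-bending adaptor (Pearson r = 0.67), Btbd11 (0.62), Hpgds, a prostaglandin D synthase (0.62), the zinc transporter Slc39a6 (0.59) and Gcsam (0.58). Bin1 had its highest means in the MPP groups, 10.19 in FL and 9.92 in BM, and 8.31 and 8.39 in the LT-HSC groups. These are the highest of many correlations over arrays of 6 groups, given as a description only.

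Sox7, the second SoxF gene (chromosome 14, 63943706 to 63950732), varied little over the arrays. Its log2 signal was 8.58, 8.44 and 8.39 in FL LT-HSC a, b and c, and 8.22, 8.33 and 8.28 in BM LT-HSC. In FL MPP it was 8.69, 8.72 and 8.49, and in BM MPP 8.36, 8.33 and 8.47. In both populations the FL arrays all lay above the BM arrays. In FL ST-HSC it was 8.28, 8.39 and 8.33 and in BM ST-HSC 8.24, 8.38 and 8.46, where the arrays overlapped. FL minus BM was 0.14 ± 0.06 on average (limma adjusted p = 0.124), 0.20 ± 0.11 in LT-HSC (adjusted p = 0.356) and 0.25 ± 0.11 in MPP (adjusted p = 0.26). Groups that do not overlap were found in 19.0% of all genes in LT-HSC and 32.9% in MPP. Within FL, ST-HSC minus MPP was -0.30 ± 0.11 (adjusted p = 0.212), the sign also seen for Sox17, and the signals of Sox7 and Sox17 correlated at r = 0.58 over the 18 arrays.

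Sox18, the third SoxF gene and a regulator of blood and lymphatic vessel growth, was 1.55-fold higher in FL than in BM. It lies on chromosome 2 at 181669837 to 181671640. In FL LT-HSC its log2 signal was 7.75, 7.22 and 7.49, and in BM LT-HSC 6.96, 7.06 and 6.65. In FL MPP it was 6.99, 7.27 and 7.30, and in BM MPP 6.47, 6.48 and 6.63. In these 2 populations every FL array lay above every BM array. In FL ST-HSC it was 7.28, 7.64 and 7.85 and in BM ST-HSC 7.37, 6.99 and 6.52, so that BM ST-HSC a lay above FL ST-HSC a.

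The average FL to BM difference of Sox18 was 0.63 ± 0.12 (interval 0.39 to 0.87, limma adjusted p = 0.00057). It was 0.50 without the 4 narrow arrays, where BM ST-HSC is array a alone. By population it was 0.59 ± 0.20 in LT-HSC (adjusted p = 0.0843), 0.63 ± 0.20 in ST-HSC (adjusted p = 0.0365) and 0.66 ± 0.20 in MPP (adjusted p = 0.0683). The 3 values are close to each other, and which of them passed depended on the arrays. In ST-HSC, where Sox18 was the 1 gene of the 7 called higher against 12.1% of all genes, leaving out FL ST-HSC b (adjusted p = 0.107), FL ST-HSC c (0.131), BM ST-HSC b (0.0941) or BM ST-HSC c (0.208, difference 0.41) ended the call. It was also lost in a fit of the 2 ST-HSC groups alone (adjusted p = 0.0862). Without the 4 narrow arrays the ST-HSC difference was 0.22, but BM ST-HSC then held array a alone, the highest of that group (7.37). In LT-HSC the difference passed without BM ST-HSC a (adjusted p = 0.0463). In MPP it passed without BM ST-HSC a (0.0346), BM ST-HSC c (0.0369) or BM LT-HSC c (0.0413), and in a fit of the MPP groups alone (0.0047). Within a source, LT-HSC minus MPP was 0.30 ± 0.20 in FL (adjusted p = 0.576) and 0.36 ± 0.20 in BM (adjusted p = 0.391).

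Endothelial genes, measured beside Sox18 because the subfamily is best known there, were also higher in FL: 6 of 12 markers were higher on average and none lower, against 15.9% of all genes higher and 9.26% lower, with a median difference of 0.34. The mean of the 12 was 7.59 to 7.76 in FL LT-HSC, 7.51 to 7.87 in FL ST-HSC and 6.80 to 7.02 in FL MPP, and 7.41 to 7.52, 6.79 to 6.86 and 6.53 to 6.75 in the same BM populations. Over the 18 arrays Sox18 correlated with this mean at r = 0.69, and at 0.34 after the group means were taken off. With the means of B cell, neutrophil and T cell markers it correlated at r = -0.77, -0.70 and -0.66 (-0.24, -0.18 and -0.49 after that step), and with the stromal mean at -0.42 (-0.61). In such bulk samples, fewer cells of a type and less RNA per cell cannot be told apart, and the part of endothelial or other cells in the Sox18 difference was not tested. The genes most like Sox18 among 2067 were Nox4, an NADPH oxidase (r = 0.90), Epb41l5 (0.90) and Wdfy3 (0.90), whose signals are highest in FL ST-HSC; Nox4 was at 7.68 there and 6.03 in BM MPP.

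A list of 22 measured genes around SoxF in vessels held receptors, ligands and factors of the Notch, Vegf and angiopoietin pathways. Of the 22, 7 were higher in FL on average and 1 was lower, against 15.9% of all genes higher and 9.26% lower. The 14 others did not pass, and the median of the 22 was 0.17. The higher genes included Cdh5, the endothelial cadherin (1.51 ± 0.12, limma adjusted p = 4.77e-08), Tek, the angiopoietin receptor (1.03 ± 0.21, adjusted p = 0.00117), and Ephb4, an ephrin receptor (0.77 ± 0.16, adjusted p = 0.0013). Cxcr4, the receptor that holds stem cells in the marrow, was lower (-0.69 ± 0.09, adjusted p = 1.34e-05). Cdh5, Kdr, Mmrn2 and Robo4 are on both this list and the endothelial one, so the 2 counts share 4 genes. Between populations, 10 of the 22 were higher in LT-HSC than in MPP in FL and 1 was lower. In BM 9 were higher and 2 lower. Of all genes, 1.57% were higher in FL (3.40% in either direction), and in BM 2.23% were higher and 2.35% lower. Sox17, Sox7 and Sox18 passed neither comparison.

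**Figure D2:**
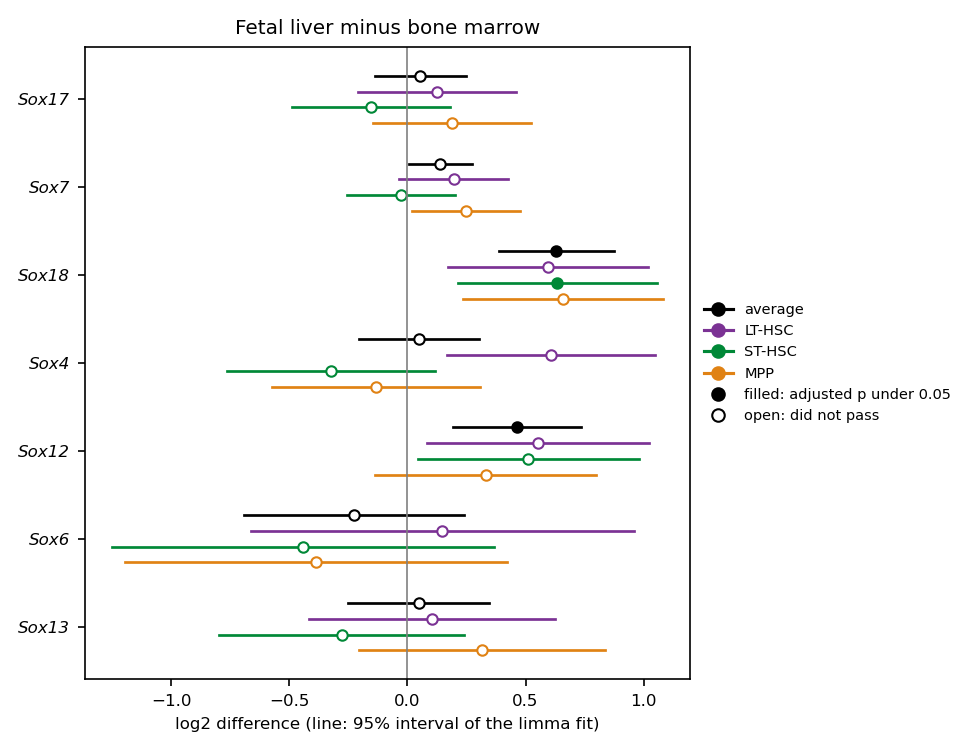
FL minus BM difference on the log2 scale for each Sox gene, on average and in LT-HSC, ST-HSC and MPP (points; lines, 95% interval of the limma fit; filled, adjusted p under 0.05). The average is filled for Sox18 (0.63) and Sox12 (0.46), the Sox17 intervals all span 0, and the Sox4 value is 0.61 in LT-HSC but below 0 in the other populations.

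Sox12 and Sox4, the SoxC pair, differed in different comparisons, and their promoters are shown because these were the genes besides Sox18 with called differences. Given 5′ to 3′ on the strand of the gene, the 250 bases before the start in RefSeq (GRCm38.p6) were read for Sox4 at chr13:28953700-28953949 and for Sox12 at chr2:152398047-152398296, both on the minus strand; capitals mark CCAAT or its reverse complement ATTGG, a common promoter box.
Sox4: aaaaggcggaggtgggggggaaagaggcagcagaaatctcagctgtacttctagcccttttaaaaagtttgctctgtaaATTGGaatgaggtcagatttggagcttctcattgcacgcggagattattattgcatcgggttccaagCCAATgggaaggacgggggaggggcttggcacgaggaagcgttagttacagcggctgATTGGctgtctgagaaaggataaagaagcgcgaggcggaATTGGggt
Sox12: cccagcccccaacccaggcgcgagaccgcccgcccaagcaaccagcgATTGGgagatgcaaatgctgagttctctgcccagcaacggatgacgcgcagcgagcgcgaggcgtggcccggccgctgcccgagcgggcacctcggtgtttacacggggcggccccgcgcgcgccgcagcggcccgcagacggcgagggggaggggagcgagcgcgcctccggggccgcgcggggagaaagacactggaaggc
The Sox4 window held 4 CCAAT boxes in either direction, 8, 47, 104 and 171 bases before the start, and the Sox12 window held 1, 203 bases before. CCAAT occurs on either strand in 33.8% of 32851 such windows. GGGCGG, the GC box, was found 3 times in the Sox12 window and not in that of Sox4, against 32.7% of windows. GC content was 50.8% for Sox4 and 74.4% for Sox12, with a median of 52.4% over all windows. Neither window held ACAAT or ACAAAG, core letters that HMG boxes bind, or TATAAA; these occur in 27.7%, 16.5% and 12.4% of windows. The letters were searched on both strands; the GGGCGG matches of Sox12 at 225 and 221 bases before the start share bases with each other. A match is not evidence of binding. Of the 7 genes, 4 matched an entry in the promoter table.

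Sox12, the SoxC factor with overlapping but weaker activity than Sox4, was 1.38-fold higher in FL than in BM (chromosome 2, 152393611 to 152398046). Its log2 signal was 9.74, 9.26 and 9.69 in FL LT-HSC and 9.28, 9.29 and 8.47 in BM LT-HSC. It was 8.98, 9.79 and 9.44 in FL ST-HSC and 9.09, 8.92 and 8.65 in BM ST-HSC. It was 9.55, 9.65 and 9.41 in FL MPP and 9.28, 9.31 and 9.03 in BM MPP. The FL arrays all lay above the BM arrays in MPP, as for 32.9% of all genes in 1 or the other direction. In LT-HSC 1 FL array fell among the BM arrays, as did 1 in ST-HSC. The average difference was 0.46 ± 0.13 (interval 0.19 to 0.74; limma adjusted p = 0.012). Without the 4 arrays described as sgEzh2 the difference was 0.46 but did not pass (adjusted p = 0.0718). By population it was 0.55 ± 0.22 in LT-HSC (adjusted p = 0.161), 0.51 ± 0.22 in ST-HSC (adjusted p = 0.113) and 0.33 ± 0.22 in MPP (adjusted p = 0.552). The LT-HSC value fell to 0.28 without BM LT-HSC c (adjusted p = 0.465), and the ST-HSC value passed without that array (0.0445) or without FL ST-HSC a (0.72, adjusted p = 0.0472). Sox12 signals were lower in arrays with a narrow range (r = 0.69 with the interquartile range over 18 arrays). Without the 4 narrow arrays, where BM ST-HSC is array a alone, the average difference was 0.36. Sox12 also moved against some markers of other cells and with others. Its r over 18 arrays was -0.80 with the T cell mean (-0.74 after the group means were taken off). It was -0.68 with the stromal mean (-0.78) and -0.69 with the neutrophil mean (-0.24). With the hepatocyte mean it was 0.60 (0.08) and with the endothelial mean 0.33 (0.42). BM LT-HSC c had the lowest Sox12 signal of the 18 arrays (8.47) and the highest T cell (7.91) and stromal (7.82) means. These r values were not computed without that array. The part of these cells in the Sox12 difference was not tested. Sox12 and Sox18 correlated at r = 0.62.

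Sox4 did not differ between FL and BM on average, but in BM it was lower in LT-HSC than in the other populations, by 2.10-fold against MPP and 2.25-fold against ST-HSC (chromosome 13, 28948919 to 28953699). Its log2 signal was 10.05, 9.79 and 8.88 in BM LT-HSC, 10.89, 10.49 and 10.84 in BM ST-HSC, and 10.72, 10.61 and 10.60 in BM MPP. All 3 BM LT-HSC arrays lay below the other BM arrays, as for 21.2% of all genes against MPP and 12.1% against ST-HSC in 1 or the other direction, and array c lay furthest below. In FL LT-HSC it was 10.35, 10.07 and 10.12, in FL ST-HSC 10.32, 10.44 and 10.50, and in FL MPP 10.43, 10.56 and 10.54. The FL groups spanned less, and FL LT-HSC arrays overlapped with FL ST-HSC arrays but not with FL MPP arrays. LT-HSC and MPP did not overlap in FL for 24.8% of all genes.

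In BM, LT-HSC minus MPP was -1.07 ± 0.21 (interval -1.51 to -0.63; limma adjusted p = 0.0049), the single call among the 7 genes, where 2.35% of all genes were lower and 2.23% higher. LT-HSC minus ST-HSC was -1.17 ± 0.21 (interval -1.61 to -0.73; adjusted p = 0.00622), again the single call, against 0.502% of all genes lower and 1.21% higher. The number of all genes called in LT-HSC minus ST-HSC was 334 but moved widely, from 11 in a fit of the 2 groups alone to 4940 with array weights, and was 101 without BM ST-HSC c and 812 without BM LT-HSC c. Without BM LT-HSC c the differences were -0.72 (adjusted p = 0.00345) and -0.82 (adjusted p = 0.00275). In a fit of the 2 groups compared alone, where the spread of BM LT-HSC counts in full, they did not pass (adjusted p = 0.129 and 0.402). In FL, LT-HSC minus MPP was -0.33 ± 0.21 (adjusted p = 0.538) and LT-HSC minus ST-HSC -0.24 ± 0.21 (adjusted p = 0.773). The test of the difference between sources gave 0.74 ± 0.30 for LT-HSC minus MPP (adjusted p = 0.536) and 0.93 ± 0.30 for LT-HSC minus ST-HSC (adjusted p = 0.227), so a stronger drop in BM than in FL was not shown. Without BM LT-HSC c these were 0.39 (adjusted p = 0.555) and 0.58 (adjusted p = 0.0889).

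Between sources, Sox4 was 0.61 ± 0.21 higher in FL LT-HSC than in BM LT-HSC (limma adjusted p = 0.0922). Every FL array lay above every BM array, and 19.0% of all genes had no overlap there in 1 or the other direction. The Sox4 difference was 0.26 without BM LT-HSC c (adjusted p = 0.312), and 0.85 without BM LT-HSC a, where it passed (adjusted p = 0.0151). In ST-HSC it was -0.32 ± 0.21 (adjusted p = 0.278) and in MPP -0.13 ± 0.21 (adjusted p = 0.873). In MPP every BM array lay above every FL array, and 32.9% of all genes had no overlap. BM LT-HSC c also had the highest mean of all arrays for the neutrophil (13.04), B cell (9.76), T cell (7.91) and stromal genes (7.82). After group means were taken off, Sox4 correlated with the T cell mean at r = -0.87 and with the stromal mean at r = -0.71 over 18 arrays. The part of these cells in the Sox4 differences was not tested.

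The genes most like Sox4 over the arrays were Tgif1, a homeobox repressor (r = 0.92), Cd34, the progenitor surface protein by which LT-HSC and later cells differ (0.85), and Hnf4a (0.83). Cd34 was at 10.59 in BM LT-HSC, 11.99 in BM ST-HSC and 12.30 in BM MPP, and at 11.72, 12.04 and 12.31 in the FL populations, so it too was lowest in BM LT-HSC. Hnf4a is known as a hepatocyte factor and is also on the hepatocyte list. Among all genes, 9.26% were lower in FL on average and 15.9% higher. Of 13 measured lymphoid genes around Sox4 and Sox13, 7 were lower in FL on average, none was higher and 6 did not pass, with a median of -0.52. Dntt, the terminal transferase of antigen receptor joints (-3.89 ± 0.21, limma adjusted p = 2.07e-10), Vpreb1, a surrogate light chain (-1.48 ± 0.17, adjusted p = 3.42e-06), the B cell receptor chain Cd79a (-1.43 ± 0.19, adjusted p = 2.62e-05) and the B cell factor Pax5 (-1.09 ± 0.16, adjusted p = 6.04e-05) were among them. Cd79a, Pax5 and Ebf1 are also on the B cell marker list, of which 5 of 7 were lower in FL, against the same 9.26% of all genes.

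**Figure D3:**
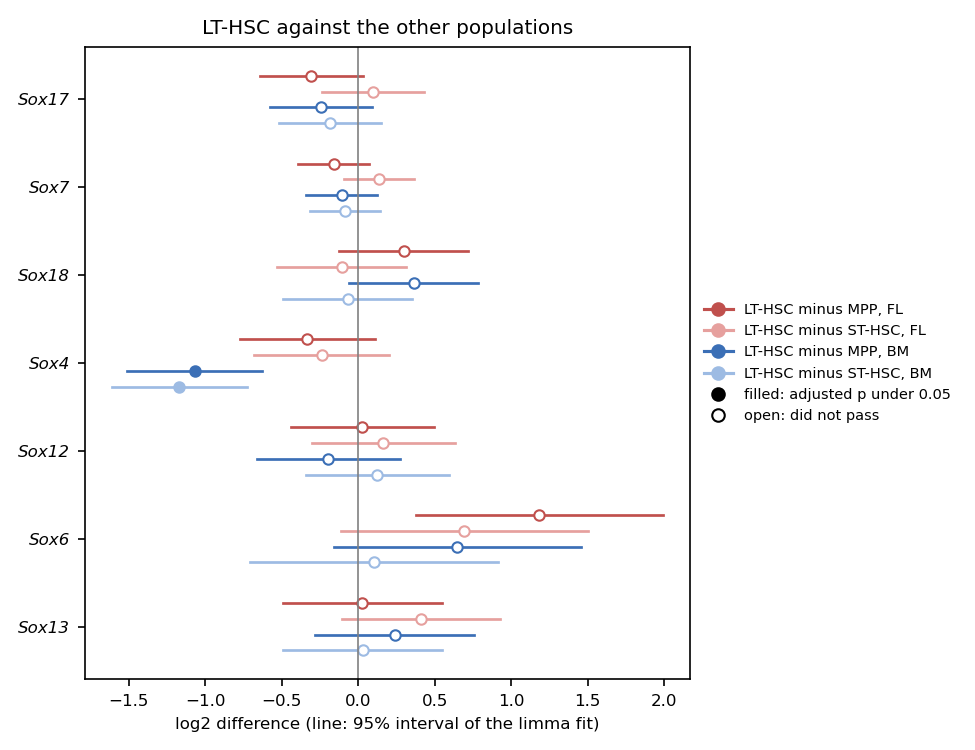
LT-HSC minus MPP and LT-HSC minus ST-HSC on the log2 scale for each Sox gene, in FL (red) and BM (blue); lines are the 95% interval of the limma fit and filled points have an adjusted p under 0.05. The filled points are the 2 BM values of Sox4 (-1.07 and -1.17), and the farthest value to the right is Sox6 in FL (1.18), which is open.

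Sox6, the SoxD repressor of embryonic globins (chromosome 7, 115470872 to 116040776), had the widest spread of the 7 genes. In FL LT-HSC its log2 signal was 8.33, 7.86 and 9.88, in FL ST-HSC 7.89, 8.55 and 7.55, and in FL MPP 7.78, 7.21 and 7.54. In BM LT-HSC it was 8.50, 8.04 and 9.09, in BM ST-HSC 8.28, 8.66 and 8.38, and in BM MPP 7.90, 8.15 and 7.63. FL LT-HSC c was the highest array. FL minus BM was -0.23 ± 0.22 on average (limma adjusted p = 0.511), and 0.05 without the 4 narrow arrays. LT-HSC minus MPP was 1.18 ± 0.38 in FL, 2.27-fold (interval 0.38 to 1.99; adjusted p = 0.118), with every LT-HSC array above every MPP array, as for 24.8% of all genes in 1 or the other direction. It was 0.59 without FL LT-HSC c (adjusted p = 0.467), and 1.60 without FL LT-HSC b, where it passed (adjusted p = 0.0269). In BM it was 0.65 ± 0.38 (adjusted p = 0.432), and 0.38 without BM LT-HSC c (adjusted p = 0.763).

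Sox6 moved with erythroid genes and, after group means were taken off, also with hepatocyte and neutrophil genes. The mean of 5 erythroid markers was 7.49 to 7.82 in FL MPP, 8.10 to 9.20 in FL ST-HSC and 7.73 to 9.98 in FL LT-HSC, and 8.37 to 8.53, 8.48 to 9.94 and 8.55 to 9.79 in BM MPP, BM ST-HSC and BM LT-HSC. Sox6 correlated with this mean at r = 0.82 over 18 arrays and at 0.72 after group means were taken off. With the hepatocyte mean it correlated at 0.19 over 18 arrays and at 0.83 after that step. With the neutrophil mean the values were 0.30 and 0.73. FL LT-HSC c, highest in Sox6, was highest in the erythroid and hepatocyte means (9.98 and 9.43). Among the FL arrays it was also highest in the neutrophil mean (7.91). The r values were not computed without this array. The part of erythroid or other cells in the Sox6 signal was not tested. Of 9 measured genes of globin switching, 2 were higher in FL on average, 1 was lower and 6 did not pass, with a median of 0.22; among all genes 15.9% were higher and 9.26% lower, so these counts are near the background. The embryonic globins Hbb-y (2.20 ± 0.44, limma adjusted p = 0.00109) and Hbb-bh1 (1.20 ± 0.30, adjusted p = 0.00696) were the higher ones, and Myb, a factor of progenitor growth, was the lower (-0.19 ± 0.06, adjusted p = 0.0322).

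Sox13, the second SoxD gene and a partner of Tcf1 (chromosome 1, 133382300 to 133424459), was highest in the 4 narrow arrays. Its log2 signal was 8.63, 8.98 and 8.66 in FL LT-HSC, 8.35, 8.29 and 8.39 in FL ST-HSC, and 8.75, 8.71 and 8.72 in FL MPP. It was 8.35, 8.38 and 9.23 in BM LT-HSC, 7.90, 8.99 and 8.97 in BM ST-HSC, and 8.46, 8.30 and 8.47 in BM MPP. The narrow arrays lay at 8.97 to 9.23 and the other 14 at 7.90 to 8.75. Sox1, Sox5, Sox10 and Sry, from the 13 other Sox genes, were likewise higher in the 4 narrow arrays than in any other array. FL minus BM was 0.05 ± 0.14 on average (limma adjusted p = 0.849). It was 0.35 without the 4 narrow arrays, but BM ST-HSC then held array a alone, at 7.90, the lowest of all 18 arrays. In MPP, a population with no narrow array, FL minus BM was 0.32 ± 0.25 (adjusted p = 0.635). There the FL arrays lay all above the BM arrays, as for 32.9% of all genes in 1 or the other direction. This MPP difference passed in a fit of the MPP groups alone (limma adjusted p = 0.0484). Within FL, ST-HSC minus MPP was -0.38 ± 0.25 (adjusted p = 0.55), with no overlap, as for 26.5% of all genes.

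**Figure D4:**
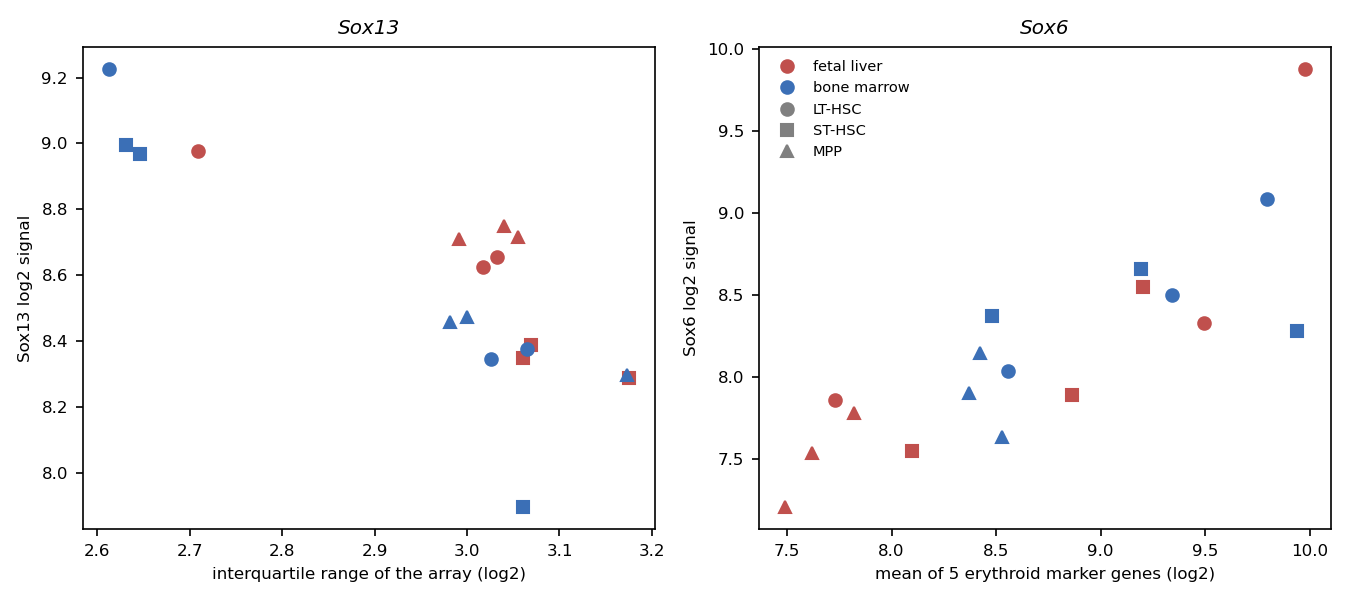
Left, log2 signal of Sox13 against the interquartile range of each array; right, log2 signal of Sox6 against the mean of 5 erythroid marker genes (18 arrays; red, FL; blue, BM; circle, LT-HSC; square, ST-HSC; triangle, MPP). The 4 arrays with the narrowest range have the 4 highest Sox13 signals (r = -0.82), and FL LT-HSC c is highest on both axes of the right panel (r = 0.82).

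In the comparisons within LT-HSC and within MPP between FL and BM, none of the 7 genes passed (limma; 3 and 2 of them at an unadjusted p under 0.05), against 7.66% and 5.47% of all genes. In FL, none passed between LT-HSC and MPP (1 unadjusted, 3.40% of all genes), LT-HSC and ST-HSC (0 unadjusted, 0.559%) or ST-HSC and MPP (2 unadjusted, 2.26%), and in BM none between ST-HSC and MPP (1 unadjusted, 6.10%). For the differences between sources in LT-HSC minus MPP and LT-HSC minus ST-HSC, Sox4 was the 1 gene with an unadjusted p under 0.05 in each, and 0.543% and 0.379% of all genes passed. Of the 13 other Sox genes none passed on average between FL and BM, and none had an unadjusted p under 0.05, with a median of -0.03. In ST-HSC, Sox21 was higher in FL (0.50 ± 0.14, adjusted p = 0.0205) and Sry lower (-0.56 ± 0.16, adjusted p = 0.0252), 2 genes named after their values were seen, where 12.1% of all genes were higher and 6.52% lower. Of the 3 BM ST-HSC arrays, b and c are narrow arrays, and over the 18 arrays Sry and Sox21 correlated with the interquartile range at r = -0.84 and 0.65.

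Other genes that act with Sox factors were counted from lists. Among all genes, 15.9% were higher in FL on average and 9.26% lower, and the counts that follow stand against these shares. Of 9 measured TCF and beta-catenin genes, which SoxF and SoxD proteins are known to bind or oppose, none was higher in FL on average, 2 were lower and 7 did not pass, with a median of 0.11; the lower ones were Myc (-0.58 ± 0.11, limma adjusted p = 0.000711) and Lef1 (-0.42 ± 0.10, adjusted p = 0.00447). Among 18 stem cell transcription factors, 4 were lower in FL and 2 higher, and the remaining 12 missed the threshold, with a median of -0.01. Prdm16, which fetal and adult stem cells need, was higher (0.64 ± 0.21, adjusted p = 0.0313), and Lmo2 (-0.64 ± 0.10, adjusted p = 0.000104), Gata2 (-0.53 ± 0.17, adjusted p = 0.0312) and Meis1 (-0.40 ± 0.14, adjusted p = 0.041) were lower. Of the remaining marker lists on average, 4 of 9 hepatocyte genes were higher, 1 of 8 stromal genes was higher and 3 were lower, 3 of 5 T cell genes, 8 of 8 neutrophil genes and 1 of 5 erythroid genes were lower, and of 5 measured sort genes Cd34 was higher and Slamf1 lower.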

How the data were processed

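RNA (2 ng per sample, 10 PCR cycles before labelling) was hybridised to Clariom S mouse arrays, per the labels' protocols. The authors deposited log2 signals for 22203 probe sets on 18 arrays, made with R 3.5.01 and oligo, as the submitters' processing notes say; how background, normalization and summarization were handled is not given in the sources used here. Of these probe sets, 19572 have 1 gene symbol in the platform annotation and 2631 were left unnamed; of several for a gene the one with the highest mean was kept, giving 19505 genes. Signals of different probe sets were not set against each other. Precision is set by how few arrays there are: over genes, the median SE of 3 against 3 was 0.17.

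One mean per group was fitted to the 18 arrays (limma 3.58.1, R 4.3.3), a step tested on simulated data, and p-values were Benjamini-Hochberg adjusted over all genes; a gene is called at an adjusted p under 0.05. Intervals are at 95%. No 2 arrays held the same values. Alternatives left out each array, the 4 narrow arrays or the 4 sgEzh2 arrays, or changed the normalization, a filter on dim genes, probe set choice, weights, variance model, samples fitted, call rule or a replicate block. Named are the 7 genes, up to 4 called genes of each list with the largest average difference, and the 5 (Sox17) or 3 genes most like a gene that passed the F test. The members and lists were chosen with earlier results of these data known.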

Additional observations from a re-analysis of the deposited data

Results flagged for a closer look

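The difference between sources in the LT-HSC minus MPP contrast of Sox4 was 0.74, because FL minus BM was 0.61 in LT-HSC, with every FL array higher, and -0.13 in MPP, with every FL array lower. The limma test of this difference did not pass (adjusted p = 0.536). Without BM LT-HSC c it was 0.39. Arrays of FL and BM that do not overlap were seen for 19.0% of all genes in LT-HSC and 32.9% in MPP.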

How the results depend on the processing

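The Sox17 differences did not pass under any setting; a filter on the dimmest 30% of genes left Sox17 out and gave no value. Among values that did not pass, some changed sign: the average of Sox4 was -0.10 without the 4 narrow arrays, -0.023 after repeated quantile normalization and -0.016 with array weights, that of Sox6 was 0.054 without the narrow arrays, and that of Sox13 was -0.0013 after quantile normalization. The cause was not tested.

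With arrays left out singly, the Sox4 average ranged from -0.0657 to 0.13, the Sox13 average from -0.0733 to 0.143 and the Sox17 difference in LT-HSC from -0.0153 to 0.31. Asking also for a 2-fold difference ended the calls of Sox18 and Sox12, whose differences are below it. Deviations of same-lettered arrays from their group means correlated at r = -0.376 to 0.217 between FL and BM. The r was -0.124 to 0.0988 within FL and -0.464 to 0.416 within BM. Arrays of different letters were not compared, so these values do not show whether the letters a, b and c pair the arrays. With a replicate block Sox18 had an average adjusted p of 0.00128, and no call changed among the 7 genes.

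The number of the 7 genes called changed as follows. Fits without the narrow or the sgEzh2 arrays are not counted, as the former left 1 BM ST-HSC array and the latter 1 FL MPP array. Such a group is assumed to vary like the other groups. On average between FL and BM the number was 2, and 0 with the fold rule. In LT-HSC it was 0 (0 to 1 with arrays left out singly). In ST-HSC it was 1, and 0 in a fit of the groups compared or with the fold rule, and 3 with array weights (0 to 2 singly). In MPP it was 0, and 2 in a fit of the groups compared, and 1 with array weights (0 to 1 singly). LT-HSC minus MPP in FL gave 0, and 1 with array weights (0 to 1 singly). ST-HSC minus MPP gave 0 in both sources, and in BM 1 with array weights. In BM, LT-HSC minus MPP gave 1 and 0 in a fit of the groups compared, and LT-HSC minus ST-HSC gave 1, 2 with array weights and 0 in such a fit. The difference between sources in LT-HSC minus ST-HSC gave 0, and 1 with array weights. Over all genes, the average comparison called 4904, from 443 with the fold rule to 7260 with array weights; in BM, LT-HSC minus MPP called 892 (255 in a fit of the groups compared to 1721 with array weights) and LT-HSC minus ST-HSC 334 (11 to 4940 under the same settings). Under each alternative setting, the median difference over all genes was less than 0.1 in size in every comparison.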
